A study of Caenorhabditis elegans with 12 samples.

Results

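Messenger RNA of eat-2;nhr-62 double mutants was compared with that of wild-type (N2) animals of Caenorhabditis elegans, gene by gene, to see what still differs from wild-type in worms that eat less and lack nhr-62 function. The comparison rests on 6 of the 12 libraries of the series, 3 of each genotype, chosen by their genotype labels. The other 6 are eat-2 and nhr-62 single mutants, 3 libraries each, which share the estimate of spread and whose levels stand beside the genes named.

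The double mutants carry eat-2(ad465) and nhr-62(tm1818), the wild-type animals neither. All were day 0 adults without embryos, grown at 20 °C, and each library came from a hand-picked pool of whole animals. nhr-62(tm1818) is a partial deletion, from which a short predicted form of the receptor without its DNA-binding domain could still be made. Total counts per library ran between 18260311 and 31180808 in double mutants and between 28336227 and 29081076 in wild-type.

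EAT-2 is an acetylcholine receptor subunit of pharyngeal muscle, and worms that lack it pump slowly, take in less bacteria and are a common model of dietary restriction. NHR-62 is a nuclear receptor related to mammalian HNF4α, a receptor known for its part in lipid and glucose metabolism. In worms with little food, the intestine, which stores fat and makes yolk, is known to change its use of lipids.

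Neither of the 2 mutated genes passed the test, and the counts of eat-2 were low. nhr-62 had 90.7, 92 and 124 normalized counts in double mutants, against 190, 154.7 and 124 in wild-type (log2 fold-change -0.61 ± 0.19 SE, adjusted p = 0.0555). eat-2 had 4.69, 0 and 4.81 normalized counts in double mutants, against 14.8, 21.1 and 7.64 in wild-type (log2 fold-change -2.26 ± 0.75 SE, adjusted p = 0.0715). For eat-2 every double mutant library lay below every wild-type library. For nhr-62 the highest double mutant and the lowest wild-type library were both at 124. Reads from the part of the first exon that nhr-62(tm1818) lacks cannot occur, but how much of the full-gene count that removes is not known here. The eat-2 allele need not alter its count, and these values are a weak check of the labels.

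A normalized count is a count scaled for library size and composition. A gene was called when its Benjamini-Hochberg adjusted p from the quasi-likelihood test of edgeR was under 0.05, its fold change over 1.5 and its mean normalized count over 10. Of 15344 genes tested, 1017 were called (6.63%), of which 805 were higher (5.25%) and 212 lower (1.38%) in double mutants. Increases of over 8-fold were called in 42 genes and decreases of over 8-fold in 11. The median log2 fold-change of all tested genes was 0.02, that of the genes called higher 1.03 and that of the genes called lower -0.99. Without replicate 3 of wild-type the count of calls was 554. P-values measure the spread between pools of animals. At least 1 exon base was shared with another gene in 268 called genes (26.4%), and in 28.9% of tested genes, and such counts are uncertain because the strand setting of the counting is unknown here. Among the genes named below the shared stretch was over 100 bases for vit-3, vit-4, lipl-4, tnc-2, ceh-22, pals-32 and Y48E1B.8. Because whole animals were sequenced, fewer cells of a type and less RNA per cell cannot be told apart.

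**Figure D1:**
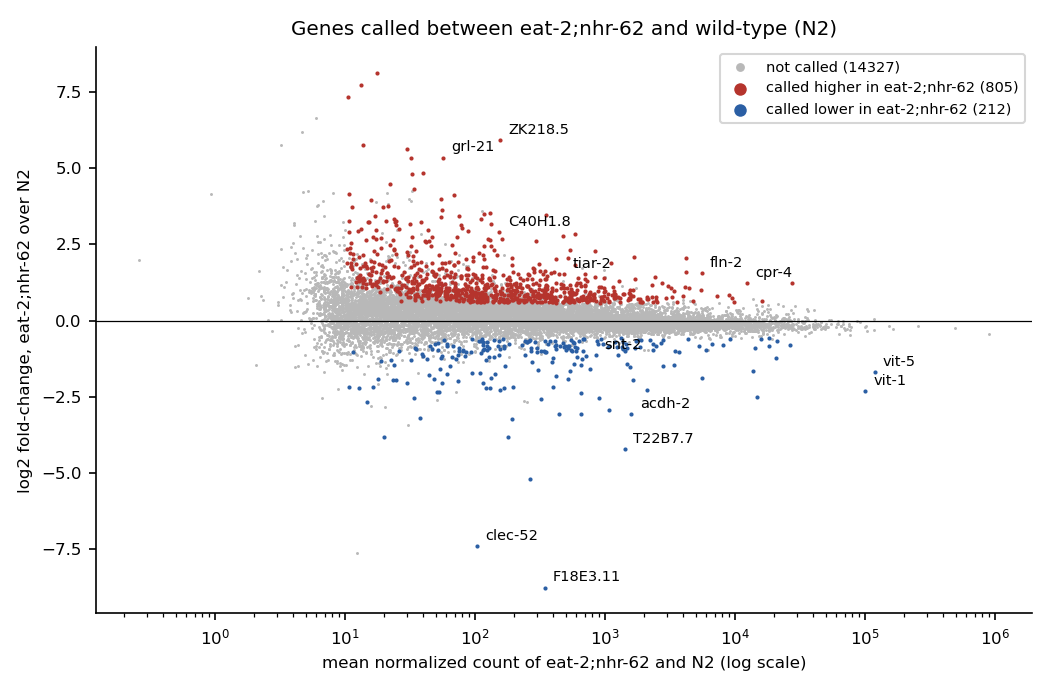
Each point is a tested gene, with its mean normalized count in both genotypes on the x axis (log scale) and its log2 fold-change of eat-2;nhr-62 over N2 on the y axis. The 805 genes called higher (red) and the 212 called lower (blue) lie on both sides of a grey band of genes that were not called, and vit-1 and vit-5 are among the most abundant transcripts called.

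Markers of other tissues bear on how the pools compare. Sperm markers summed to 2499 to 3373 normalized counts in double mutants and 1441 to 3371 in wild-type, and 0 of 6 were called. None of 6 oocyte and 5 germ line markers was called either. At an unadjusted p under 0.05 edgeR gave 0 of the sperm, 0 of the oocyte and 1 of the germ line markers, and DESeq2 called 0 in each of these lists. Germ line markers summed to 55716 to 61423 normalized counts in double mutants and 64209 to 68134 in wild-type. All 5 had a log2 fold-change under 0, with a median of -0.13, and 3 were lower without overlap. One of them, glh-1, passed the adjusted p alone (log2 fold-change -0.35 ± 0.10, adjusted p = 0.0447). The part of germ line markers in the results below was not tested. In a wider list of 84 tested sperm genes 1 was called, as higher (1.19%, against 5.25% of all tested genes). Without replicate 1 of wild-type 9 were higher, and without replicate 2 of wild-type 4 were lower. The mean log2 deviation of these genes was 0.285, -0.806 and -0.019 in wild-type, and 0.228, -0.116 and -0.098 in double mutants. With it as a covariate 1157 genes were called, 960 of them among the 1017. Embryo markers were sparse, with sums of 86 to 115 normalized counts in double mutants and 98 to 245 in wild-type, and 1 of 6 was at 0 in every library compared. All 3 that passed the low-count filter had a log2 fold-change under 0, with a median of -0.83, and none was called by edgeR or DESeq2, though 1, end-3, had an unadjusted p under 0.05 and no overlap. end-3 had 4.69, 5.52 and 4.81 normalized counts in double mutants, against 7.38, 21.1 and 12.01 in wild-type (log2 fold-change -1.40 ± 0.48, adjusted p = 0.0787), and the part of embryo markers in the results below was not tested. Adult hypodermis markers summed to 43328 to 60951 normalized counts in double mutants and 49392 to 63804 in wild-type, nearly all of it from col-19, with 60868, 54635 and 43263 in double mutants, against 63760, 49307 and 59702 in wild-type. The other 4 were low and varied widely between libraries, and the median log2 fold-change of the 5 was 1.27, with 0 called by edgeR or DESeq2 and 0 at an unadjusted p under 0.05. All 4 markers of pharyngeal muscle were called higher, and are described below with the whole list. The 7 intestinal markers all had a log2 fold-change above 0, with 1 called, and are described at the end.

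The yolk protein genes held the most abundant transcripts that fell. Vitellogenins carry lipid from the intestine to the oocytes, and 4 of the 6 genes were called lower (66.7%, against 1.38% of all tested genes). The median log2 fold-change was -1.68 over all 6. vit-5 had 43490, 62296 and 61887 normalized counts in double mutants, against 165603, 195326 and 184025 in wild-type, a log2 fold-change of -1.70 ± 0.15 (SE, adjusted p = 7.55e-05). vit-1 had 32379, 36221 and 31383 normalized counts in double mutants, against 178662, 161215 and 161507 in wild-type, a log2 fold-change of -2.33 ± 0.22 (SE, adjusted p = 8.81e-05). In both genes every double mutant library lay below every wild-type library, and the highest of them was under the lowest wild-type value by more than the spread within either genotype.

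vit-3 and vit-4 also fell, with log2 fold-changes of -2.53 ± 0.27 and -1.66 ± 0.25 (SE, adjusted p = 0.000237 and 0.00179), but they are close copies of each other and reads of one can be counted to the other. vit-2 did not pass, with 397319, 462546 and 488989 normalized counts in double mutants, against 494913, 559736 and 536688 in wild-type (log2 fold-change -0.24 ± 0.11, adjusted p = 0.186). vit-6 did not pass either (log2 fold-change -0.45 ± 0.14, adjusted p = 0.0576). For both genes the libraries of the genotypes did not overlap, as held for 35.0% of all tested genes. In eat-2 single mutants vit-5 averaged 25925 normalized counts, and the double mutants were above them by a log2 fold-change of 1.11 ± 0.15 (adjusted p = 0.00353).

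A few genes of fatty acid oxidation fell strongly. Of 33 tested, 4 were called lower (12.1%, against 1.38% of all tested genes) and 1 higher (3.03%, against 5.25%). The median log2 fold-change was -0.09 over the list. acdh-2, an acyl-CoA dehydrogenase, had 134, 391 and 469 normalized counts in double mutants, against 2478, 3392 and 2733 in wild-type (log2 fold-change -3.08 ± 0.32, adjusted p = 0.000161). acs-2, which activates fatty acids for mitochondrial oxidation, had 239, 244 and 258 normalized counts in double mutants, against 1605, 2588 and 1550 in wild-type (log2 fold-change -2.95 ± 0.29, adjusted p = 0.000117). The genotypes lay far apart in both genes, replicate 1 of the double mutant was the lowest for acdh-2, and acs-2 varied more in wild-type than in double mutants. acdh-2 shares 87 exon bases with ins-13.

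The other 2 that fell changed less. acdh-9, a second acyl-CoA dehydrogenase, and cpt-5, a carnitine palmitoyltransferase, had log2 fold-changes of -0.74 ± 0.11 and -0.88 ± 0.16 (adjusted p = 0.00153 and 0.00472). cpt-4, of the same enzyme family as cpt-5, was called higher with a log2 fold-change of 1.81 ± 0.45 (adjusted p = 0.0225), a call that was lost without replicates 1 or 2 of the double mutant or replicates 1 or 3 of wild-type. In the peroxisome, acox-1.2 and acox-1.3, acyl-CoA oxidases of which relatives shorten the side chains of ascarosides, were the 2 of 16 tested genes called, both lower (log2 fold-changes -1.44 ± 0.23 and -0.86 ± 0.16, adjusted p = 0.00256 and 0.00634). These 2 are 12.5% of that list, against 1.38% of all tested genes called lower.

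Other genes of lipid and intermediary metabolism that fell were expressed at high levels. fat-7, a stearoyl-CoA desaturase, was the 1 of 16 desaturases and elongases called (6.25%, against 1.38% of all tested genes called lower). It had 1745, 2315 and 3031 normalized counts in double mutants, against 8079, 6069 and 12354 in wild-type (log2 fold-change -1.90 ± 0.34, adjusted p = 0.00405). Its replicates were spread widely in both genotypes without overlap. pck-1, the phosphoenolpyruvate carboxykinase of gluconeogenesis, had 1976, 2502 and 2913 normalized counts in double mutants, against 5627, 5041 and 4380 in wild-type (log2 fold-change -1.02 ± 0.14, adjusted p = 0.000953). Of 30 short-chain dehydrogenases tested, 3 were called lower (10%, against 1.38% of all tested genes) and 1 higher (3.33%, against 5.25%). Their median log2 fold-change was -0.10. Without replicate 3 of the double mutant 5 were lower, and without replicate 1 of wild-type 2 were higher. dhs-26 and dhs-25 fell, by log2 fold-changes of -3.83 ± 0.37 and -1.46 ± 0.20 (adjusted p = 0.000112 and 0.000964). dhs-26 shares 54 exon bases with another gene. The gene called higher was dhs-30 (log2 fold-change 0.97 ± 0.11, adjusted p = 0.000293).

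Lipases, which release fatty acids from stored fat, included genes that rose. Of 21 lipase genes tested, out of 29 in the list, 7 were called higher (33.3%, against 5.25% of all tested genes) and none lower. The median log2 fold-change was 1.07. C40H1.8, a predicted class 3 lipase, had 241, 310 and 266 normalized counts in double mutants, against 30.6, 45.3 and 33.8 in wild-type (log2 fold-change 2.90 ± 0.18, adjusted p = 2.18e-05). It averaged 150.3 ± 9.5 in eat-2 and 27.1 ± 3.3 in nhr-62 single mutants (SD, n = 3 each), so all 3 double mutant libraries were also above every library of these genotypes, and the difference from eat-2 passed the test (C40H1.8, log2 fold-change 0.86 ± 0.16, adjusted p = 0.0149). The study measured C40H1.8 by qPCR and found its rise in eat-2 weaker in eat-2;nhr-62, the other way from these counts.

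The lysosomal lipases lipl-2, lipl-3 and lipl-4 were among the 7, while lipl-1, lipl-5 and lipl-7 had log2 fold-changes of 1.28, 0.37 and -0.27 and did not pass (adjusted p = 0.202, 0.579 and 0.189). lipl-3 had 183, 280 and 382 normalized counts in double mutants, against 56.9, 62.1 and 14.2 in wild-type (log2 fold-change 2.66 ± 0.40, adjusted p = 0.00178). lipl-2 and lipl-4 rose by log2 fold-changes of 2.22 ± 0.46 and 1.71 ± 0.39 (adjusted p = 0.00969 and 0.0151), and the lipl-2 call was lost without replicate 3 of wild-type. fil-2, a fasting-induced lipase, rose by 2.28 ± 0.45 on the log2 scale (adjusted p = 0.00744). lips-15 and lips-17 rose by 0.70 ± 0.13 and 0.67 ± 0.13 (adjusted p = 0.00636 and 0.00627), and the call was lost without replicate 1 of the double mutant for lips-15 and without replicate 2 of wild-type for lips-17. C40H1.7, the neighbour of C40H1.8, did not pass, with 263, 375 and 383 normalized counts in double mutants, against 238, 90.5 and 129 in wild-type (log2 fold-change 1.16 ± 0.47, adjusted p = 0.129), with no overlap between the genotypes.

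**Figure D2:**
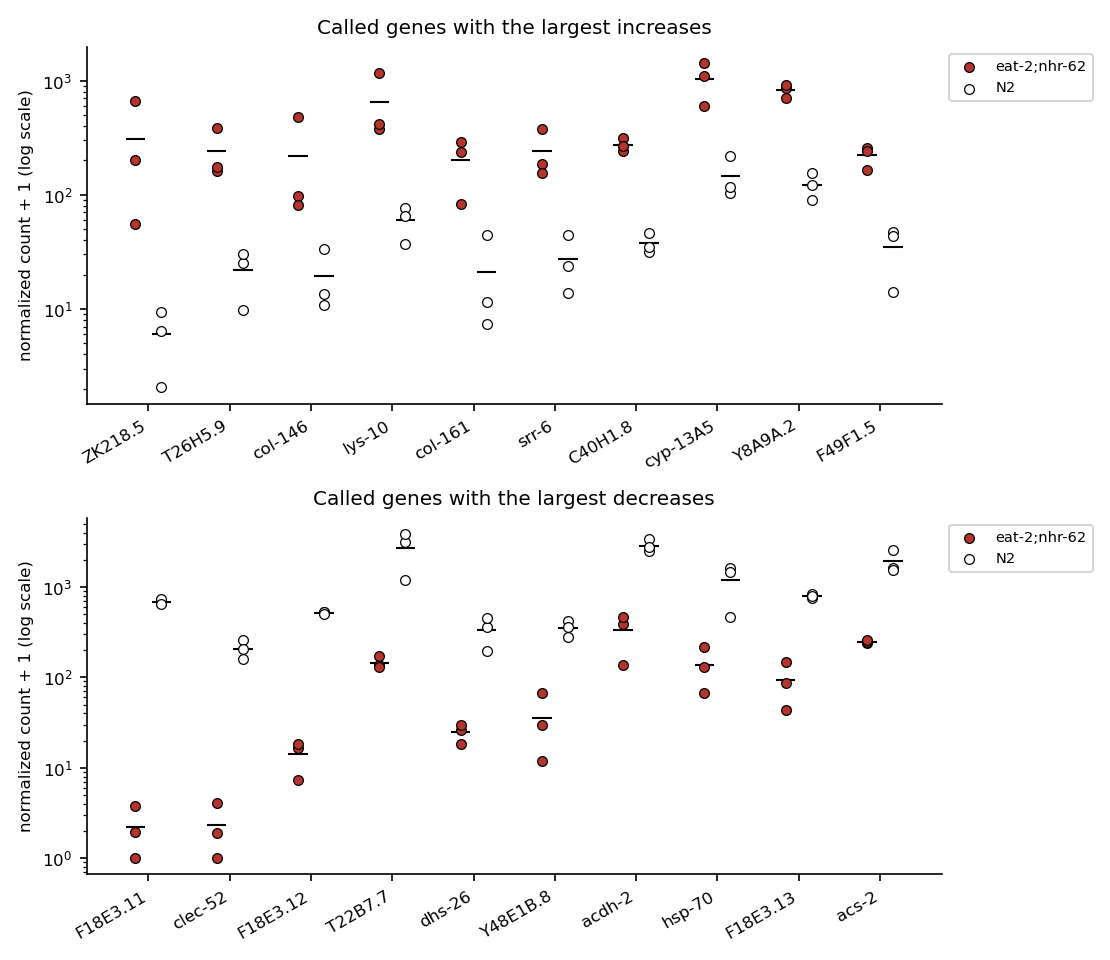
Normalized counts plus 1 (log scale) of the 10 called genes with the largest increases (top) and the 10 with the largest decreases (bottom), among those with a mean over 100 and no overlap. Filled points are the 3 eat-2;nhr-62 libraries, open points the 3 N2 libraries and bars their means, and ZK218.5 has the widest spread among double mutants, with 54.7, 201 and 664 normalized counts.

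The largest decreases were in genes with almost no reads left. clec-52, a C-type lectin, had 3.13, 0.92 and 0 normalized counts in double mutants, against 257, 160 and 205 in wild-type (log2 fold-change -7.41 ± 0.58, adjusted p = 4.14e-05). These are 3 counts in all against 584, a level 191-fold lower in double mutants (exact 95% interval 65.1 to 930, for counting error only). F18E3.11 had 0, 2.76 and 0.962 normalized counts in double mutants, against 665, 740 and 651 in wild-type, which is 4 counts against 1930 and a level 474-fold lower (exact 95% interval 185 to 1742). Both genes were near 0 in every double mutant library and high in every wild-type library.

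The same genes were low in nhr-62 single mutants too. clec-52 averaged 221 ± 80.2 normalized counts in eat-2 and 0.846 ± 0.787 in nhr-62 libraries, and F18E3.11 192.5 ± 124 in eat-2 and 7.58 ± 4.96 in nhr-62 libraries (SD, n = 3 each). F18E3.12 and F18E3.13, the neighbours of F18E3.11, fell as well, by log2 fold-changes of -5.22 ± 0.57 and -3.08 ± 0.52 (adjusted p = 0.000274 and 0.0032). fbxa-192, an F-box gene, had 46.9, 38.6 and 44.3 normalized counts in double mutants, against 182, 205 and 213 in wild-type (log2 fold-change -2.21 ± 0.16, adjusted p = 2.6e-05). It averaged 54.8 normalized counts in eat-2 and 25.2 in nhr-62 libraries, so wild-type stood apart from the 3 mutant genotypes. Its neighbours F59A1.9 and F59A1.8 fell by log2 fold-changes of -2.23 ± 0.20 and -0.83 ± 0.14 (adjusted p = 7.55e-05 and 0.0037).

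T22B7.7 and gst-10 were low in eat-2 libraries too. T22B7.7 had 134, 169.2 and 128 normalized counts in double mutants, against 3108, 1182 and 3852 in wild-type (log2 fold-change -4.23 ± 0.36, adjusted p = 7e-05), and averaged 184 in eat-2 libraries (log2 fold-change of double mutant over eat-2 -0.34 ± 0.37, adjusted p = 0.547). gst-10, a glutathione S-transferase, had 130, 135 and 166 normalized counts in double mutants, against 750.4, 529.5 and 685 in wild-type (log2 fold-change -2.18 ± 0.18, adjusted p = 6.41e-05), and averaged 144 in eat-2 libraries (log2 fold-change of double mutant over eat-2 0.00 ± 0.19, adjusted p = 0.999). The metallothionein mtl-2 fell by a log2 fold-change of -1.88 ± 0.23 (adjusted p = 0.0005). hsp-70, a heat-inducible chaperone, fell by 3.08 ± 0.73 on the log2 scale (adjusted p = 0.0191), a call lost without replicates 1 or 3 of the double mutant or replicate 3 of wild-type. Y48E1B.8 fell by a log2 fold-change of -3.25 ± 0.54 (adjusted p = 0.00284) and shares 226 exon bases with clec-145.

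Most listed genes of pharyngeal muscle rose. Of 12 tested, eat-2 among them, 8 were called higher (66.7%, against 5.25% of all tested genes) and none lower, with a median log2 fold-change of 0.69. Of 25 body wall muscle genes 0 were called, against 6.63% of all tested genes, and their median was -0.04. In that body wall list DESeq2 called 0 as well. At the adjusted p alone, which 11.3% of all tested genes passed, 7 passed, 6 of them lower and 1 higher. At an unadjusted p under 0.05 edgeR gave 8, of which 7 were lower and 1 higher. myo-2, a myosin heavy chain made in the pharynx, had 12595, 12271 and 10030 normalized counts in double mutants, against 7685, 6514 and 5378 in wild-type (log2 fold-change 0.83 ± 0.16, adjusted p = 0.00674). tnt-4, the pharyngeal troponin T, had 2059, 1784 and 1579 normalized counts in double mutants, against 1254, 845 and 837 in wild-type (log2 fold-change 0.88 ± 0.15, adjusted p = 0.00343). In these genes the lowest double mutant library was above the highest wild-type library.

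Other genes of the list were called too. tnc-2, the pharyngeal troponin C, and myo-5, a further myosin heavy chain, rose by log2 fold-changes of 0.77 ± 0.13 and 0.77 ± 0.12 (adjusted p = 0.00295 and 0.00184), and marg-1 by 0.94 ± 0.16 (adjusted p = 0.00359). The troponin I gene tni-4, the myosin gene myo-1 and ceh-22, a homeobox regulator of pharyngeal muscle, had log2 fold-changes of 0.60 ± 0.10, 0.62 ± 0.16 and 1.07 ± 0.28 (adjusted p = 0.0036, 0.0258 and 0.0309). Each of these 3 calls was lost without replicates 1 or 2 of the double mutant or replicates 2 or 3 of wild-type, which leaves 5 calls in the list without any 1 of these libraries. Outside the list, fln-2, a filamin, had 8582, 8626 and 7619 normalized counts in double mutants, against 3113, 2738 and 2517 in wild-type (log2 fold-change 1.57 ± 0.12, adjusted p = 2.76e-05).

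**Figure D3:**
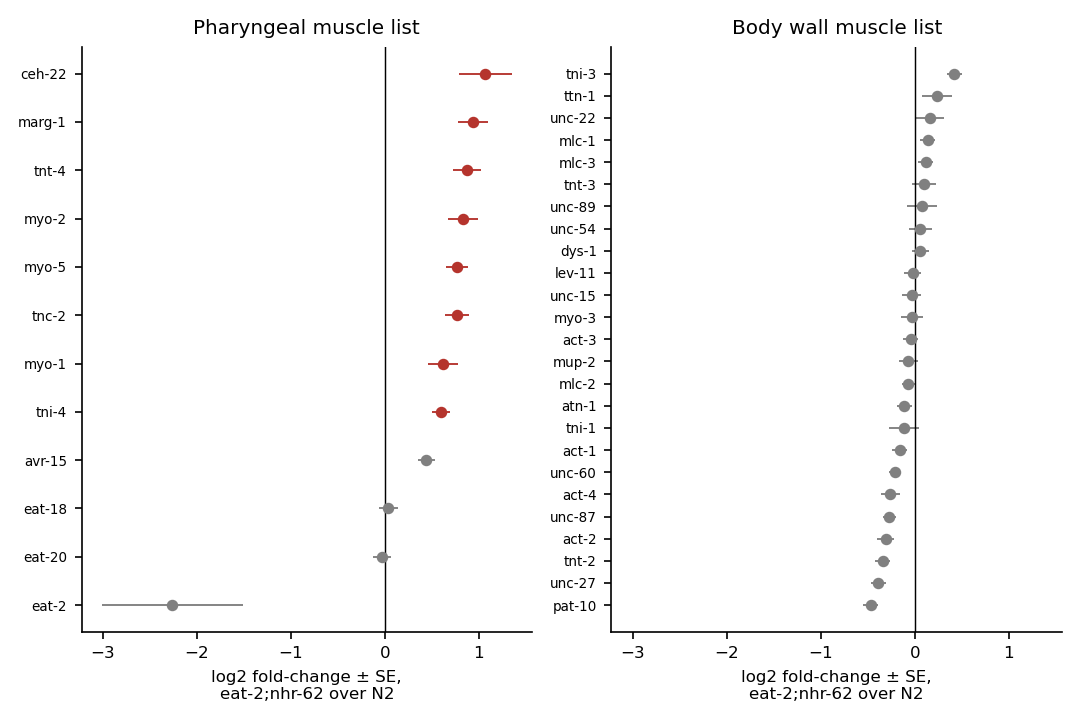
Log2 fold-changes of eat-2;nhr-62 over N2 with their SE (x axis) for the tested genes of the pharyngeal muscle list (left) and the body wall muscle list (right), with called genes in red and the others in grey. In the pharyngeal list 8 of 12 genes are red, and in the body wall list 0 of 25.

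Genes for the abu and pqn proteins, which are rich in glutamine and asparagine and many of which are made in the pharynx, rose in part. Of 57 tested, out of 70 in the list, 15 were called higher (26.3%, against 5.25% of all tested genes) and 1 lower (1.75%, against 1.38%). The median log2 fold-change was 0.28. The 15 include abu-7 and abu-15, which had no wild-type count and were tested only because of their counts in the mutants. pqn-92 had 1246, 1139 and 1175 normalized counts in double mutants, against 738, 704 and 637 in wild-type (log2 fold-change 0.77 ± 0.08, adjusted p = 0.000148). abu-11 had 82.9, 95.7 and 65.4 normalized counts in double mutants, against 9.49, 9.47 and 17.5 in wild-type (log2 fold-change 2.74 ± 0.27, adjusted p = 0.000118). Both genes stood apart between the genotypes, and abu-11 was higher still in eat-2 libraries, at 204 normalized counts, above the double mutant (log2 fold-change of double mutant over eat-2 -1.33 ± 0.22, adjusted p = 0.00813).

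abu-7 and abu-15 had no count in any wild-type library and passed the filter on low counts only through the mutants. abu-7 had 37.5, 43.2 and 25 normalized counts in double mutants, which is at least 32.9-fold higher than the level of 3 counts over the wild-type group. abu-15 had 28.1, 29.4 and 22.1 normalized counts in double mutants, at least 24.8-fold higher by the same floor. abu-8 had 53.2, 76.3 and 47.1 normalized counts in double mutants, against 1.05, 1.05 and 1.09 in wild-type, which is 166 counts against 3 and a ratio of 56.3 (exact 95% interval 18.9 to 276, for counting error only). abu-7 and abu-8 are near-identical copies, so reads may be counted to the wrong one. With the 3 tested genes that had no wild-type count set at their bound, the median of the list stayed at 0.28. The 1 gene called lower, pqn-37, had a log2 fold-change of -0.61 ± 0.17 (adjusted p = 0.0366) and lost its call in every fit without 1 of the 6 libraries.

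Some neuropeptide genes rose, and most genes of neurons did not pass. Of 30 FMRFamide-like peptide genes tested, 10 were called higher (33.3%, against 5.25% of all tested genes) and none lower. All 30 had a log2 fold-change above 0, and the median was 0.51. flp-14 had 689, 709 and 705 normalized counts in double mutants, against 456, 468 and 452 in wild-type (log2 fold-change 0.61 ± 0.08, adjusted p = 0.000558). flp-21, a ligand of the receptor NPR-1, had 125, 109 and 120 normalized counts in double mutants, against 50.6, 57.9 and 51.3 in wild-type (log2 fold-change 1.15 ± 0.16, adjusted p = 0.00125). Replicates lay close together in these genes, and the double mutants were above wild-type without overlap in 27 of the 30, against 35.0% of all tested genes that did not overlap in either direction.

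Other peptide genes rose as well. flp-8 rose by a log2 fold-change of 1.35 ± 0.17 (adjusted p = 0.000639). Of 65 neuropeptide-like protein genes tested, 11 were called higher (16.9%, against 5.25% of all tested genes) and none lower. Among them was nlp-51, with 199, 189.5 and 174 normalized counts in double mutants, against 72.7, 79 and 62.2 in wild-type (log2 fold-change 1.39 ± 0.16, adjusted p = 0.000301). Without replicate 3 of wild-type the count for neuropeptide-like proteins was 6, without replicate 1 of the double mutant it was 7. Of 12 neuropeptide processing genes tested, 2 were called higher (16.7%, against 5.25% of all tested genes) and none lower, and 9 had a log2 fold-change above 0. pghm-1, which helps to amidate peptides, rose by 0.64 ± 0.07 on the log2 scale (adjusted p = 0.00041). pgal-1, egl-21 and sbt-1 passed the adjusted p but not the fold (log2 fold-changes 0.41 ± 0.08, 0.51 ± 0.09 and 0.50 ± 0.08). Among neuronal markers 1 of 6 was called, rgef-1, which lost its call without any 1 of replicates 2 and 3 of the double mutant and all 3 of wild-type. The summed level of the 6 was 5373 to 5543 normalized counts in double mutants and 5030 to 5187 in wild-type. Most of it came from snb-1, with 4208, 4272 and 4017 in double mutants, against 3873, 4014 and 3912 in wild-type (log2 fold-change 0.08 ± 0.05, adjusted p = 0.331). Of the 6, 4 had a log2 fold-change above 0, with a median of 0.18. Of 33 synaptic genes 1 was called, as higher (3.03%, against 5.25% of all tested genes). At the adjusted p alone, which 11.3% of all tested genes passed, 5 passed, 4 higher and 1 lower. snt-2, a synaptotagmin outside these lists, fell, with 524, 532 and 542 normalized counts in double mutants, against 1126, 1183 and 1228 in wild-type (log2 fold-change -1.15 ± 0.08, adjusted p = 2.18e-05).

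**Figure D4:**
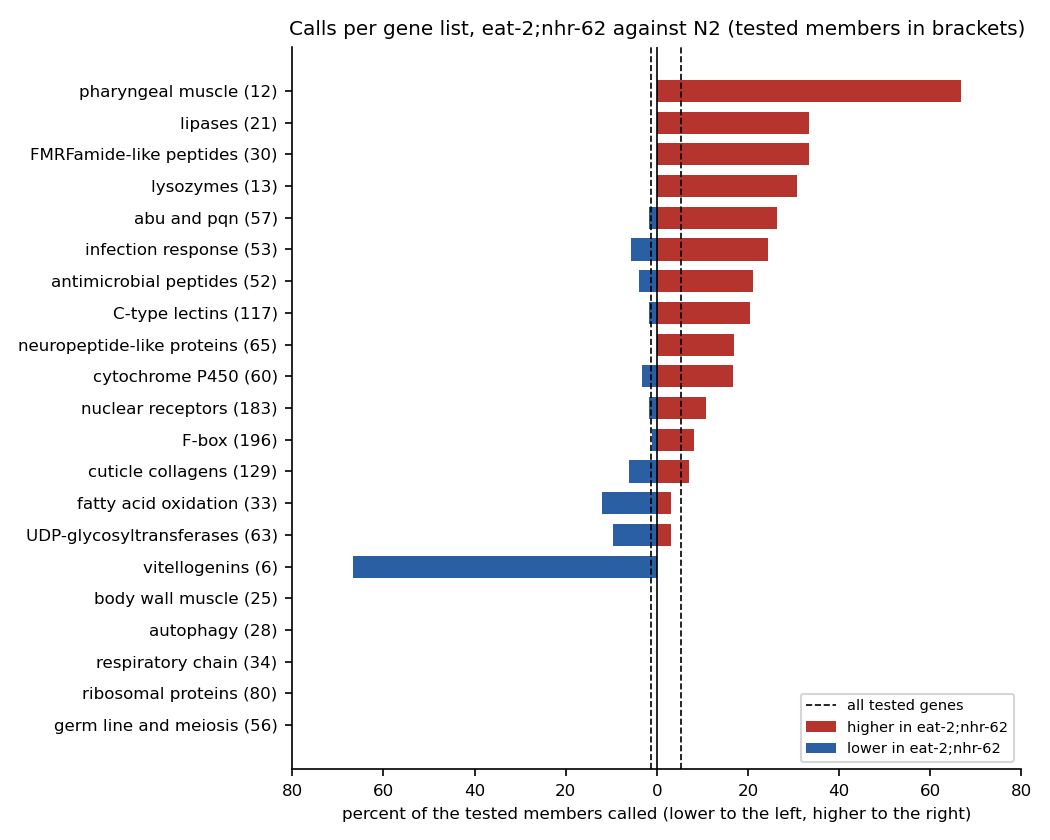
Share of the tested members of each gene list called higher (red, to the right) or lower (blue, to the left) in eat-2;nhr-62 against N2, with dashed lines at the shares of all tested genes, 5.25% higher and 1.38% lower. The pharyngeal muscle list reaches 66.7% higher and the vitellogenins 66.7% lower, while the 5 lists at the bottom have no call.

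Among genes known for their response to bacteria, more were called higher than lower. Of 117 C-type lectin genes tested, 24 were called higher (20.5%, against 5.25% of all tested genes) and 2 lower (1.71%, against 1.38%). Their median log2 fold-change was 0.41, and without replicate 3 of wild-type the count was 16 higher. clec-7 had 1090, 986 and 1038 normalized counts in double mutants, against 351, 440 and 291 in wild-type (log2 fold-change 1.52 ± 0.19, adjusted p = 0.000521). clec-17 had 144, 89.2 and 78.9 normalized counts in double mutants, against 12.7, 7.37 and 4.37 in wild-type (log2 fold-change 3.64 ± 0.37, adjusted p = 0.000155). Neither overlapped wild-type in any library.

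Lysozymes, which break down bacterial cell walls, were called higher in 4 of 13 genes (30.8%, against 5.25% of all tested genes). lys-10 had 372, 419 and 1159 normalized counts in double mutants, against 35.8, 75.8 and 64.4 in wild-type (log2 fold-change 3.47 ± 0.48, adjusted p = 0.00102), and replicate 3 of the double mutant stood above the others. ilys-3, an invertebrate lysozyme, had 12.5, 6.44 and 174 normalized counts in double mutants, against 2.11, 4.21 and 3.27 in wild-type, so 1 library carries most of its level, and its call was lost without that library or any one of the wild-type libraries. ilys-2 rose by 3.14 ± 0.46 on the log2 scale (adjusted p = 0.00146). lys-4 had 9579, 12139 and 13847 normalized counts in double mutants, against 8956, 6680 and 5860 in wild-type, and a call (log2 fold-change 0.73 ± 0.18, adjusted p = 0.0242) that was lost without replicates 2 or 3 of either genotype. Without replicate 3 of wild-type 2 of the 13 lysozymes were called.

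The infection response list ran in both directions, with 13 of 53 genes higher (24.5%, against 5.25% of all tested genes) and 3 lower (5.66%, against 1.38%). hrg-2, a heme-responsive membrane protein, had 131, 103 and 108 normalized counts in double mutants, against 22.1, 22.1 and 16.4 in wild-type (log2 fold-change 2.48 ± 0.20, adjusted p = 5.57e-05). pals-32, of a family known to respond to intracellular pathogens, rose by 1.77 ± 0.22 on the log2 scale (adjusted p = 0.000651) and stayed below eat-2 (log2 fold-change of double mutant over eat-2 -1.64 ± 0.21, adjusted p = 0.00198). irg-4 and irg-5, genes induced by Pseudomonas, went the other way. irg-4 had 65.7, 81.9 and 64.5 normalized counts in double mutants, against 425, 214 and 321 in wild-type (log2 fold-change -2.17 ± 0.26, adjusted p = 0.000431), and irg-5 fell by 3.22 ± 0.48 on the log2 scale (adjusted p = 0.00164). Without replicate 3 of wild-type 8 genes of this list were called higher. Of 52 antimicrobial peptide genes 11 were called higher (21.2%, against 5.25% of all tested genes) and 2 lower (3.85%, against 1.38%). Among them were fipr-2 (log2 fold-change 1.11 ± 0.15, adjusted p = 0.00109) and spp-17 (log2 fold-change -1.49 ± 0.22, adjusted p = 0.00154). Without replicate 3 of wild-type 5 of these genes were higher.

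The p38 mitogen-activated protein kinase genes, of which pmk-1 is a central kinase of intestinal immunity, fell. pmk-2 had 316, 408 and 446 normalized counts in double mutants, against 892, 975 and 949.6 in wild-type (log2 fold-change -1.26 ± 0.11, adjusted p = 7.55e-05). pmk-3 had 802, 1045 and 969 normalized counts in double mutants, against 1709, 2002 and 1740 in wild-type (log2 fold-change -0.95 ± 0.11, adjusted p = 0.0005). pmk-1 had 657, 865 and 801 normalized counts in double mutants, against 1404, 1460 and 1282 in wild-type (log2 fold-change -0.83 ± 0.10, adjusted p = 0.000431). All 3 lie side by side and are known to be transcribed as an operon, and with the next gene, islo-1 (log2 fold-change -0.99 ± 0.12, adjusted p = 0.000606), they made a run of 4 called genes. pmk-2 averaged 689 normalized counts in eat-2 libraries, from which the double mutants were lower (log2 fold-change -0.81 ± 0.11, adjusted p = 0.00353).

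Neighbouring genes that were called in the same direction formed 16 runs of 3 or more, with 55 genes, of which 13 runs were higher and 3 lower. Whether that is more than 1017 calls among 15344 genes would give regardless of position was not tested. Some runs rest on calls lost when 1 library was left out, such as that of ncr-2 in a run of 3. The longest had 6 genes, kreg-1, F53A9.1, F53A9.6, F53A9.7, F53A9.8 and F53A9.9, on the X chromosome. F53A9.6 had 491, 480.1 and 311 normalized counts in double mutants, against 150.7, 158 and 117 in wild-type (log2 fold-change 1.59 ± 0.30, adjusted p = 0.00627). kreg-1 rose by 2.46 ± 0.43 on the log2 scale (adjusted p = 0.00381), and the calls of F53A9.1 and F53A9.9 were lost without replicate 3 of wild-type, that of F53A9.9 also without replicate 1 of the double mutant. A run on chromosome IV held pnp-1, a purine nucleoside phosphorylase, swt-1, a sugar transporter, and dsc-4, a microsomal triglyceride transfer protein, which rose by log2 fold-changes of 1.13 ± 0.18, 0.87 ± 0.14 and 0.77 ± 0.13 (adjusted p = 0.00232, 0.00226 and 0.00295). On chromosome II bath-46, bath-26 and bath-47, genes with MATH and BTB domains, rose by 2.71 ± 0.56, 3.01 ± 0.38 and 3.13 ± 0.47 on the log2 scale (adjusted p = 0.00948, 0.000604 and 0.00172). bath-46 and bath-26 share 28 exon bases, bath-47 shares 22 with another gene, and chromosome order came from an annotation of a newer build than that of the counts.

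Some genes differed in double mutants from all 3 other genotypes. tiar-2, an RNA-binding protein of the TIA-1 family, had 810, 655 and 700.4 normalized counts in double mutants, against 233, 257 and 264 in wild-type (log2 fold-change 1.52 ± 0.13, adjusted p = 6.25e-05). It averaged 259.8 ± 36.5 in eat-2 and 259 ± 21.2 in nhr-62 libraries (SD, n = 3 each). The log2 fold-change of tiar-2 was 1.47 ± 0.13 over eat-2 and 1.48 ± 0.13 over nhr-62 (adjusted p = 0.000278 and 7.55e-05). ZK218.5 had 54.7, 201 and 664 normalized counts in double mutants, against 8.43, 1.05 and 5.46 in wild-type (log2 fold-change 5.92 ± 1.04, adjusted p = 0.00394), and 8.35 and 7.08 on average in eat-2 and nhr-62 libraries. All 3 double mutant libraries were above the other genotypes in both genes, by very different amounts in ZK218.5.

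asp-8, an aspartyl protease, had 759.7, 999 and 956 normalized counts in double mutants, against 402, 332 and 498 in wild-type (log2 fold-change 1.14 ± 0.16, adjusted p = 0.000964), and was above eat-2 as well (log2 fold-change 1.29 ± 0.16, adjusted p = 0.00173). Of 31 digestive proteases tested, 3 were called higher (9.68%, against 5.25% of all tested genes) and 2 lower (6.45%, against 1.38%). cpr-4, a cathepsin B, had 15097, 18916 and 18385 normalized counts in double mutants, against 9405, 6742 and 6082 in wild-type (log2 fold-change 1.24 ± 0.16, adjusted p = 0.000699), and asp-4, a cathepsin D, fell by 0.79 ± 0.08 on the log2 scale (adjusted p = 0.000161). Over eat-2 the log2 fold-changes of cpr-4 and asp-4 were 0.32 ± 0.16 and 0.09 ± 0.08 (adjusted p = 0.172 and 0.438). clec-169 had 104.7, 725 and 703 normalized counts in double mutants, against 113, 84.2 and 52.4 in wild-type, so replicate 1 of the double mutant lay within the wild-type range, and its call (log2 fold-change 2.63 ± 0.59, adjusted p = 0.0147) was lost without replicate 3 of either genotype.

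**Figure D5:**
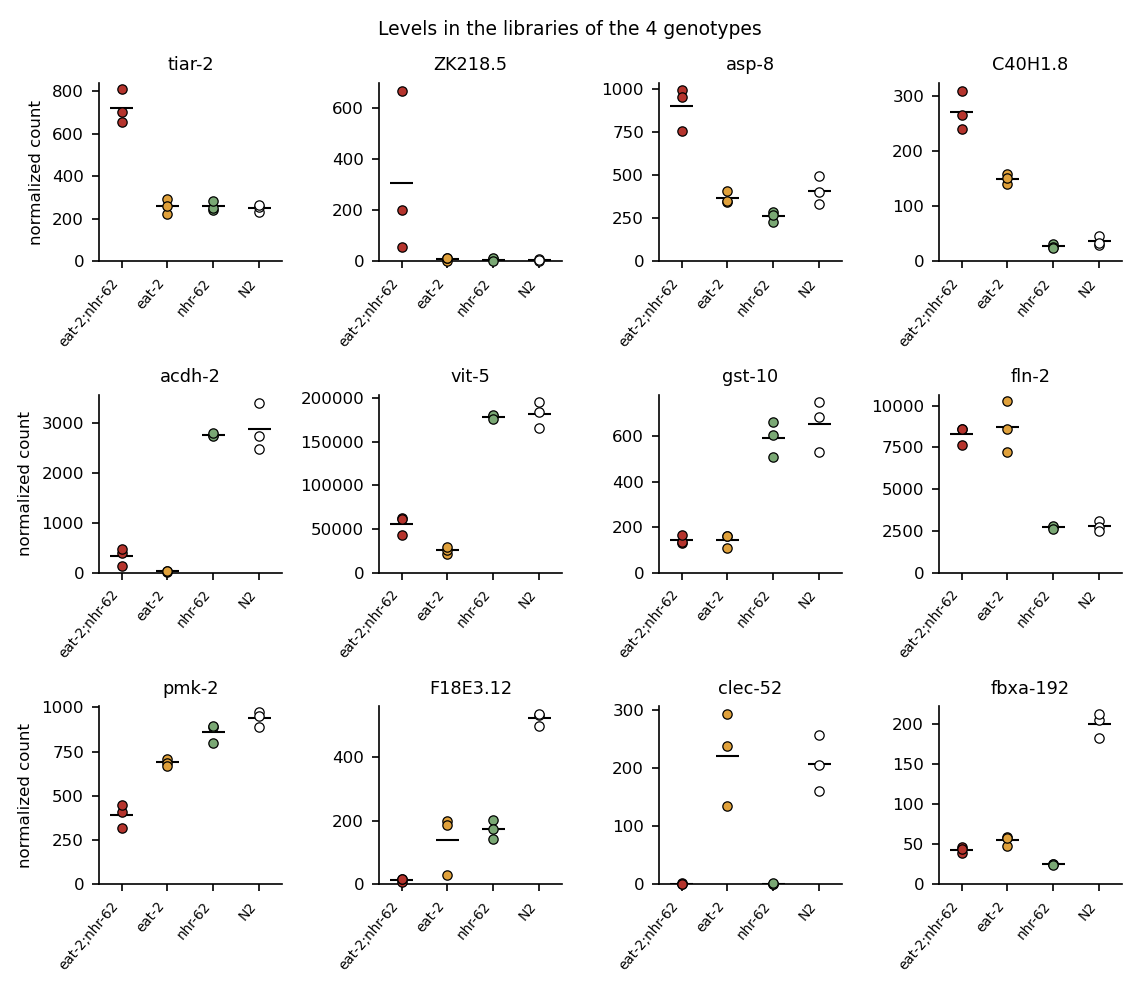
Normalized counts of 12 genes in the 3 libraries (points) and their mean (bar) of the 4 genotypes. For tiar-2, ZK218.5, asp-8 and C40H1.8 the 3 double mutant libraries lie above all others, and for clec-52 the double mutants and the nhr-62 single mutants lie near 0.

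Some regulators and detoxification genes were called too. Of 183 nuclear receptor genes tested, 20 were called higher (10.9%, against 5.25% of all tested genes) and 3 lower (1.64%, against 1.38%). Without replicate 3 of wild-type 10 were called higher, and without replicate 1 of the double mutant 13. nhr-99 had 144, 231 and 189.5 normalized counts in double mutants, against 45.3, 49.5 and 31.7 in wild-type (log2 fold-change 2.16 ± 0.25, adjusted p = 0.000378), and nhr-47 fell by 0.99 ± 0.13 on the log2 scale (adjusted p = 0.000767). pqm-1, a zinc finger transcription factor of intestinal stress and growth genes, had 1755, 1578 and 2118 normalized counts in double mutants, against 725, 805 and 692 in wild-type (log2 fold-change 1.29 ± 0.20, adjusted p = 0.00197). It was 1 of 3 genes called, all higher, among 37 regulators of dietary restriction (8.11%, against 5.25% of all tested genes). Without replicate 1 of the double mutant or replicate 3 of wild-type, pqm-1 was the 1 called gene of that list.

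Of 60 cytochrome P450 genes 10 were called higher (16.7%, against 5.25% of all tested genes) and 2 lower (3.33%, against 1.38%). But in fits without 1 of the 6 libraries 3 to 8 were called higher and 0 to 2 lower. cyp-13A5 had 600, 1418 and 1091 normalized counts in double mutants, against 102, 217 and 117 in wild-type (log2 fold-change 2.84 ± 0.46, adjusted p = 0.00254). Of 63 UDP-glycosyltransferases, which conjugate small molecules, 6 were called lower (9.52%, against 1.38% of all tested genes) and 2 higher (3.17%, against 5.25%). Only 1 was higher without replicates 1 or 3 of wild-type or any 1 of the double mutant libraries. ugt-41 had 241, 242 and 293 normalized counts in double mutants, against 848, 714 and 920.1 in wild-type (log2 fold-change -1.67 ± 0.12, adjusted p = 2.6e-05), and was lower than in eat-2 too (log2 fold-change -0.86 ± 0.12, adjusted p = 0.00454).

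Of 129 cuticle collagens, 9 were called higher (6.98%, against 5.25% of all tested genes) and 8 lower (6.2%, against 1.38%). col-91 had 62.5, 180.3 and 58.7 normalized counts in double mutants, against 8.43, 4.21 and 16.4 in wild-type (log2 fold-change 3.39 ± 0.52, adjusted p = 0.00179), well below the 566 of eat-2 libraries (log2 fold-change of double mutant over eat-2 -2.47 ± 0.39, adjusted p = 0.00721). col-101 had 11852, 12824 and 12222 normalized counts in double mutants, against 28355, 30936 and 28105 in wild-type (log2 fold-change -1.24 ± 0.20, adjusted p = 0.00254). col-161 and col-146 rose by 3.33 ± 0.70 and 3.51 ± 0.79 on the log2 scale (adjusted p = 0.0105 and 0.0153), and the col-146 call was lost without replicates 2 or 3 of wild-type. The collagen rol-6, a hypodermis marker, at 20.3, 73.6 and 2.89 normalized counts in double mutants and 2.11, 1.05 and 3.27 in wild-type, varied between libraries of the double mutant and was not called (adjusted p = 0.191), and its part in the other collagens was not tested. Without 1 of the 6 libraries 4 to 11 collagens were called higher and 4 to 9 lower, with 4 higher without replicate 2 of wild-type, 5 higher without replicate 1 of the double mutant, 4 lower without replicate 3 of wild-type and 5 lower without replicates 2 or 3 of the double mutant.

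Several large gene sets had no call. None of 80 ribosomal protein genes, 34 respiratory chain genes, 28 autophagy genes or 56 genes of germ line and meiosis was called by edgeR or by DESeq2. At the adjusted p alone, which 11.3% of all tested genes passed, 2 ribosomal, 1 respiratory chain, 1 autophagy and 2 germ line genes passed, and at an unadjusted p under 0.05 the counts were 14, 4, 7 and 7. Their median log2 fold-changes were -0.22, -0.05, 0.08 and -0.12, against 0.02 for all genes, and 3 of 80, 9 of 34, 18 of 28 and 6 of 56 genes had a log2 fold-change above 0, against 52.7% of all tested genes. The noncoding RNA tts-1, known to bind ribosomes in long-lived mutants, rose, with 5537, 6513 and 8370 normalized counts in double mutants, against 1678, 2041 and 1170 in wild-type (log2 fold-change 2.06 ± 0.40, adjusted p = 0.00729).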

How the data were processed

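RNA of 12 pools of Caenorhabditis elegans was sequenced, 3 pools for each of 4 genotypes. The deposited values are raw counts per gene, and per the labels the authors' processing used TopHat 1.3 and HTSeq. Of 45836 genes listed, 15344 passed the low-count filter of edgeR (filterByExpr).

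Counts were fitted with edgeR 4.0.16 in R 4.3.3 (TMM scaling, quasi-likelihood F test, 1 fit of all 12 libraries), with Benjamini-Hochberg adjustment across the 15344 genes. ± after a log2 fold-change is its SE. Calls needed an adjusted p under 0.05, a fold over 1.5 and a mean normalized count over 10, thresholds taken from the study. Alternatives included DESeq2 1.42.0, other scalings, no filter, a replicate block and leaving out each library.

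Named genes were the 10 largest changes either way, the 10 smallest p-values, up to 4 genes per list, genes named by the study and members of runs, plus a few chosen after their values were seen. Members and lists were chosen with earlier results of these data known. Gene names, exon overlaps and neighbours came from a WBcel235 annotation, a newer build than that of the counts, so no coordinates are given. Intervals and floors (3 counts over a group) cover counting error only.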

Additional observations from a re-analysis of the deposited data

How the results depend on the processing

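The count of 1017 called genes was 1740 with the adjusted p alone (637 of them lower), and 221 in a test against a 1.5-fold change (160 higher, 61 lower). With scaling by total counts 1242 genes were called higher, and the median log2 fold-change over the tested genes moved to 0.14, against 0.02. The total ran between 554 and 1383 when 1 library of either genotype was left out, and the count of higher genes between 402 and 1170, both ends without replicate 3 and replicate 1 of wild-type. DESeq2 called 1130 genes, of which 961 were among the 1017. Of the 1017 calls, 539 were kept without replicate 3 of wild-type and 646 without replicate 1 of the double mutant. Of the 109 called genes named in the text, 92 were called in each of the 17 alternatives other than the test against 1.5-fold, and none reversed. In that test 41 of the 109 lost the call. Many of the 109 were named for small p-values or large changes in these data, so they do not stand for the 1017. Of the genes that did not pass, col-19 (log2 fold-change -0.23 to 0.01) and lipl-5 (-0.01 to 0.73) changed sign when 1 library was left out. Low counts limit the folds of clec-52, F18E3.11 and the abu genes.

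With the replicate number as a block (replicate block) 1223 genes were called, 976 of them among the 1017. Deviations of same-numbered libraries of the genotypes had correlations across genes of 0.26, 0.17 and -0.22. Those of libraries with different numbers ran from -0.345 to 0.171. These values cannot tell whether same-numbered libraries were handled together, so the blocked fit is given as an alternative.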

Other observations

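Several strongly changed genes have no role given here, since none is known with confidence. Y8A9A.2 had 868, 919.7 and 702 normalized counts in double mutants, against 121, 154.7 and 89.5 in wild-type (log2 fold-change 2.76 ± 0.34, adjusted p = 0.000545). F49F1.5 had 255, 164.6 and 240.5 normalized counts in double mutants, against 46.4, 42.1 and 13.1 in wild-type (log2 fold-change 2.69 ± 0.38, adjusted p = 0.00109), and T26H5.9 rose by 3.52 ± 0.46 on the log2 scale (adjusted p = 0.000827). T05A12.4 had 683, 819 and 883 normalized counts in double mutants, against 2234, 2440 and 2255 in wild-type (log2 fold-change -1.53 ± 0.10, adjusted p = 2.18e-05). In each of these genes the libraries of the genotypes lay apart.

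Of 15 tested genes in the list of gluconeogenesis, glyoxylate cycle and trehalose metabolism, 2 were called higher (13.3%, against 5.25% of all tested genes). Both are trehalases, which split the sugar trehalose. The 1 called lower was pck-1 (6.67%, against 1.38%). tre-5 had 486, 575 and 363 normalized counts in double mutants, against 140.2, 166 and 158 in wild-type (log2 fold-change 1.61 ± 0.27, adjusted p = 0.00279), and tre-3 rose by 0.77 ± 0.11 on the log2 scale (adjusted p = 0.000998). ifb-2, an intermediate filament of the intestine and the 1 of 7 intestinal markers called, had 6523, 5519 and 5970 normalized counts in double mutants, against 3349, 2677 and 2562 in wild-type (log2 fold-change 1.07 ± 0.11, adjusted p = 0.000155). All 7 intestinal markers had a log2 fold-change above 0, with a median of 0.37. The 1 called is 14.3% of the 7, against 5.25% of all tested genes called higher. At an unadjusted p under 0.05 edgeR gave 5 of them, all higher, and DESeq2 called 2. The summed level of the 7 intestinal markers was 42800 to 44444 normalized counts in double mutants and 29954 to 37623 in wild-type, and its part in the intestinal genes described above was not tested.

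By chromosome, the share of tested genes called higher was 8.9% on V, 6.03% on X, 5.26% on IV, 4.82% on II, 3.49% on III and 2.38% on I, against 5.25% of all tested genes. None of 14 mitochondrial genes was called by edgeR. Of the 1017 called genes 969 were annotated as protein coding and 33 as pseudogenes. These shares carry no test.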
